A study of Homo sapiens with 18 samples.

Results

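Autophagy and lysosome genes were read in a human pancreatic cancer cell line and its gemcitabine-resistant derivative. The set was a fixed list of 42 gene symbols, and all 42 were found among the 26485 genes of the deposited table of normalized counts. It held 23 autophagy genes, 3 transcription factors of the MiT family and 16 lysosomal genes, of which 7 encode hydrolases and 3 encode subunits of the proton pump. The members were taken by name, and the list was chosen with earlier results of these data known. The cells were L3.6pl (Par) and its derivative GemR, maintained with 64 nM of gemcitabine, a nucleoside drug. Par cells carried a control siRNA (siCont), and GemR cells carried siCont or an siRNA against STIM1 (siSTIM1), in each case for 48 h. During the final 3 h each culture received either DMSO as vehicle or thapsigargin at 500 nM, and each of the 6 groups held 3 libraries of messenger RNA. There was no siSTIM1 group of Par cells. GemR is 1 derivative and only it was kept in the drug, so resistance, exposure and other differences of that derivative cannot be told apart.

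Autophagy encloses cytoplasm, protein aggregates and organelles in a double membrane, the autophagosome, and delivers them to the lysosome for breakdown. The ULK1 kinase complex and a class III PI3-kinase complex start the membrane, lipid transfer proteins feed it, and a conjugation chain couples ATG8 proteins such as LC3B to it, which receptors for cargo then bind. Lysosomes break down the contents with hydrolases that work in acid, and the acid is made by the vacuolar proton pump. TFEB, TFE3 and MITF switch on many lysosomal and some autophagy genes by binding a short promoter element called CLEAR. Thapsigargin blocks the SERCA pump, so calcium leaks out of the endoplasmic reticulum, and STIM1 is the sensor that opens calcium channels of the plasma membrane when that store is empty.

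Depth ranged from 8922439 to 16519239 reads per library, recovered from the deposited values. STIM1 had 444 to 481 normalized counts in Par with vehicle, 4976 to 6401 in GemR siCont with vehicle and 356 to 401 in GemR siSTIM1 with vehicle, so the siRNA target stood where the labels place it. The 6 ductal epithelial markers were all detected. Of 6 fibroblast markers 3 had a mean of at least 10, and only DCN was at 0 in all 6 groups. The summed level of these fibroblast markers moved with thapsigargin: from 2002.4-2254.9 to 2974.7-3192.9 in Par, from 1034.4-1271.6 to 1417.5-1569.1 in GemR siCont and from 1058.3-1211.6 to 1510.0-1785.0 in GemR siSTIM1. The part of this in the results was not tested. In the first vehicle library of GemR siCont and the first thapsigargin library of GemR siSTIM1, deviations from the group mean fell with transcript length over 12419 genes (Spearman's rho -0.585 and -0.507). In the other libraries of these 2 groups, whose deviations are taken from the same means, they rose with length (0.399 and 0.534 in GemR siCont vehicle replicates 2 and 3, 0.372 and 0.379 in siSTIM1 thapsigargin replicates 2 and 3). All 42 members passed the filter of a mean of at least 10 normalized counts. Their median level was 1010.6, against 422.1 for the 13096 genes tested. The labels number the replicates without saying whether they were separate cultures, so p-values measure the spread between these libraries. A change was called where limma's p, adjusted over all genes tested, was under 0.05. The error after ± is the standard error where the value is a log2 fold change, and the SD of 3 libraries where it is a normalized count.

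The members spanned a wide range of expression. Per kilobase of its longest transcript, SQSTM1 had the highest level of the 42, with a mean of 4904 normalized counts over the 18 libraries. PSAP followed at 3721 and the aspartic protease CTSD at 2765. TFEB, at 14.5 per kilobase, and MITF, at 20.5, had the lowest levels. A total RNA level of bulk cells cannot tell fewer expressing cells from less RNA in each cell.

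Thapsigargin raised a group of autophagy genes in all 3 settings. Most hydrolases and pump subunits had no called change, and neither did most of all genes tested. In Par, 13 of 42 members rose (31.0%, against 20.5% of all genes tested) and 5 fell (11.9%, against 19.7%). The 18 members called either way made 42.9% of the set, beside 40.1% of all genes. In GemR siCont 12 rose (28.6%, against 17.9%) and 4 fell (9.52%, against 15.8%), together 38.1% beside 33.6%. In GemR siSTIM1 14 rose (33.3%, against 12.5%) and 2 fell (4.76%, against 11.9%), together 38.1% beside 24.3%. The median log2 fold change of the members was 0.04, 0.06 and 0.13 in the same order, and that of all genes tested was -0.02, -0.03 and -0.01.

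Called rises that stood in all 3 settings came from 8 members. They were ULK1, ATG2A, WIPI1, MAP1LC3B, GABARAPL1 and OPTN among the autophagy genes, the transcription factor MITF, and NPC1 among the lysosomal genes. ATG16L1 alone fell in all 3. No member was called higher in one setting and lower in another, and 16 members were called in none of the 3. The shares of all genes tested with these patterns were not counted, so the counts have no background to stand against. At an adjusted p under 0.05, the authors' deposited tables hold 12 members higher and 4 lower in Par, 13 and 4 in GemR siCont, and 14 and 2 in GemR siSTIM1. GABARAP and OPTN in Par were called here only, near the threshold (adjusted p = 0.0490 and 0.0489 in limma), with 0.0554 and 0.0560 in the authors' deposited table. ATG13 in GemR siCont was called there only (adjusted p = 0.0378 in the authors' deposited table, 0.0618 in limma).

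**Figure D1:**
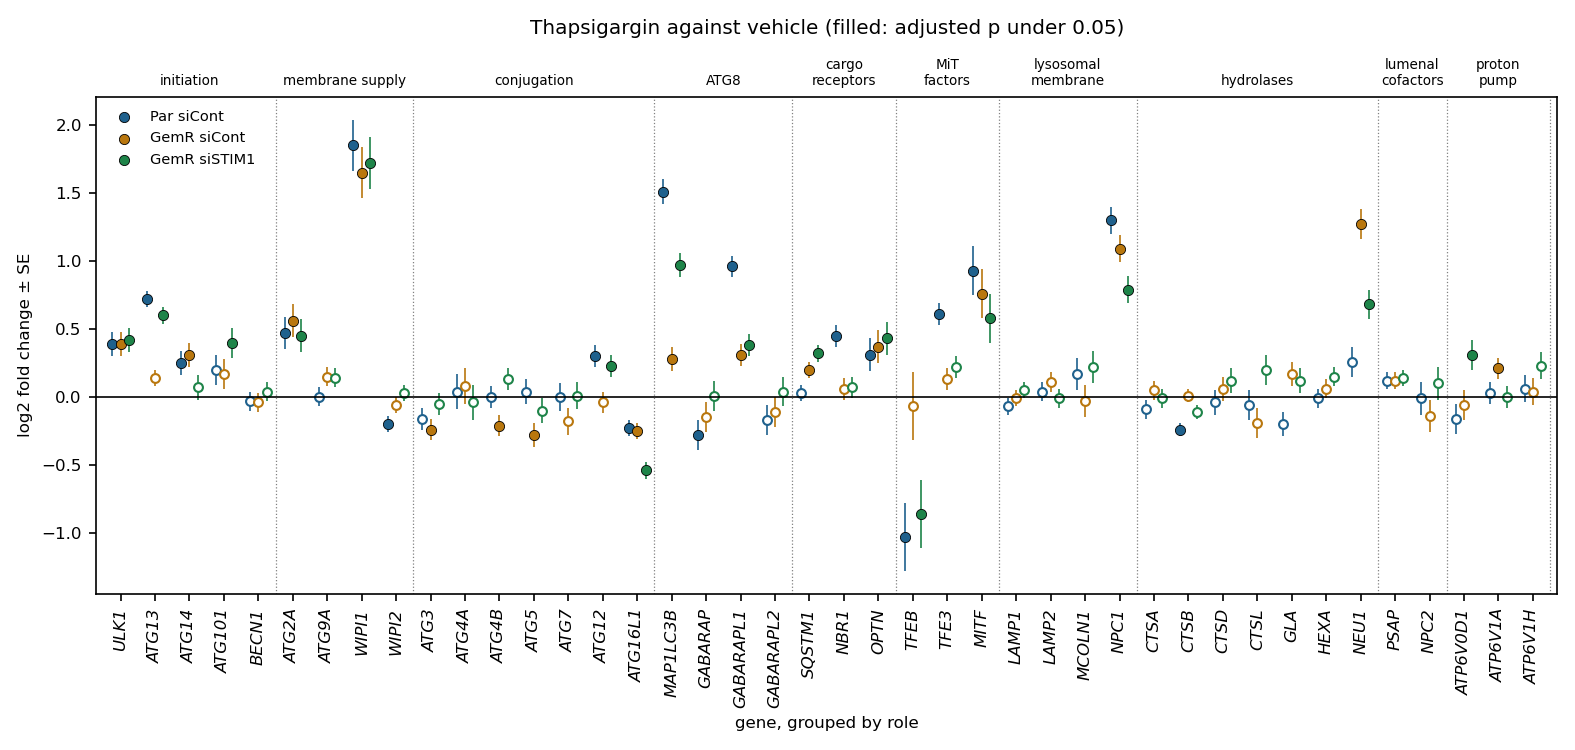
Log2 fold change of thapsigargin against vehicle (y axis, ± standard error of the fit) for the 42 members, grouped by role along the x axis, in Par siCont, GemR siCont and GemR siSTIM1. Filled points passed an adjusted p of 0.05 and open points did not; WIPI1, MAP1LC3B, NPC1 and NEU1 stand highest, and most hydrolases and pump subunits lie near 0.

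Genes that start autophagy rose in part. ULK1, the kinase at the head of the pathway, had 344.4 to 394.0 normalized counts in the 3 Par vehicle libraries and 471.2 to 492.1 with thapsigargin. The groups did not overlap, and the log2 fold change was 0.39 ± 0.09 (1.31-fold, adjusted p = 0.00139). It was 0.39 ± 0.09 in GemR siCont and 0.42 ± 0.09 in GemR siSTIM1, so ULK1 moved by nearly the same amount everywhere. ATG13, the adaptor of the ULK1 complex, had 1467, 1453.2 and 1499 in Par with vehicle and 2435.5, 2540.3 and 2293.6 with thapsigargin. That rise was 0.72 ± 0.06 (1.64-fold, adjusted p = 6.6e-09). In GemR siCont the values were 1607.9, 1547.5 and 1538.9 with vehicle and 1676.3, 1815.2 and 1692.9 with thapsigargin, a change of 0.14 ± 0.06 that was not called. In GemR siSTIM1 they were 1024.1, 1022.7 and 1054.7 and then 1593.2, 1588.3 and 1521.4, a rise of 0.60 ± 0.06 (adjusted p = 1.2e-07). The vehicle libraries of siSTIM1 lay below all others, and thapsigargin brought them to the vehicle level of GemR siCont.

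The remaining starters moved less in Par. ATG14, which directs the PI3-kinase complex to autophagy, rose in Par (0.25 ± 0.09) and GemR siCont (0.31 ± 0.09) and had 0.07 ± 0.09 in GemR siSTIM1. The call in Par was lost when any of 5 of the 6 Par libraries was left out, all but vehicle replicate 1 (adjusted p = 0.0519 to 0.0771 for ATG14). ATG101, which stabilises ATG13, had a called rise in GemR siSTIM1, at 0.40 ± 0.11 (adjusted p = 0.0091), and had 0.20 ± 0.11 and 0.17 ± 0.11 in Par and GemR siCont. That call was lost without siSTIM1 thapsigargin replicate 1 (adjusted p = 0.0634). BECN1, a core subunit of the PI3-kinase complex, stayed between -0.04 and 0.04 in the 3 settings and was not called.

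WIPI1 had the largest response of the 42 members. It lies at chr17:68420948-68457513 on the minus strand and encodes a protein that binds phosphoinositides where the autophagosome forms. In Par its normalized counts were 77.2, 80.2 and 63.4 with vehicle and 290.9, 256.8 and 251.6 with thapsigargin. The rise was 1.85 ± 0.19 (3.60-fold, adjusted p = 2.0e-07) with no overlap. In GemR siCont the counts were 21.2, 30.7 and 38.8 and then 95.0, 105.7 and 83.6, a rise of 1.65 ± 0.19 (3.14-fold, adjusted p = 9.8e-07). In GemR siSTIM1 they were 27.3, 30.5 and 26.8 and then 115.6, 93.1 and 79.0, a rise of 1.72 ± 0.19 (3.28-fold, adjusted p = 8.2e-07). The folds were alike although GemR cells began and ended at lower levels than Par. Exons of ARSG and of a non-coding transcript, both on the opposite strand, cover 28.1% of the exon bases of WIPI1. The counting is not stated to use strand, so reads of the partners cannot be told apart. ARSG had a mean of 77.2 normalized counts over all libraries.

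Among the other genes of membrane supply, ATG2A, a lipid transfer protein, rose by 0.47 ± 0.12, 0.56 ± 0.12 and 0.45 ± 0.12 in Par, GemR siCont and GemR siSTIM1. The siSTIM1 call was lost without siSTIM1 vehicle replicate 2 (ATG2A, adjusted p = 0.0575). ATG9A, the scramblase that seeds the membrane, had 0.00 ± 0.07, 0.15 ± 0.07 and 0.14 ± 0.07 and was not called. WIPI2, which recruits ATG16L1, fell in Par by 0.20 ± 0.06 on the log2 scale (adjusted p = 0.0138) and had -0.06 ± 0.06 and 0.03 ± 0.06 in the GemR settings. The fall in Par was lost without vehicle replicate 2 or 3 or thapsigargin replicate 1.

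The conjugation enzymes had few called rises. Of the 7, 1 rose and 1 fell in Par, 0 rose and 4 fell in GemR siCont, and 1 rose and 1 fell in GemR siSTIM1. The shares that rose were 14.3%, 0.00% and 14.3%, beside 20.5%, 17.9% and 12.5% of all genes. Those that fell were 14.3%, 57.1% and 14.3%, beside 19.7%, 15.8% and 11.9%. ATG16L1, the scaffold that places the ATG12-ATG5 conjugate on the membrane, had 1241.6, 1338.9 and 1256.2 in Par with vehicle and 1105.8, 1021.9 and 1143.7 with thapsigargin (log2 fold change -0.23 ± 0.06). In GemR siCont it went from 1143.6, 1142.0 and 1220.7 to 955.2, 980.3 and 1006.1 (-0.25 ± 0.06). In GemR siSTIM1 it went from 1090.1, 1147.7 and 1139.1 to 768.0, 796.5 and 758.3 (-0.54 ± 0.06, adjusted p = 1.5e-06). Thapsigargin libraries lay below vehicle libraries in each setting. ATG12, the ubiquitin-like partner of ATG5, rose in Par (0.30 ± 0.08) and in GemR siSTIM1 (0.23 ± 0.08, lost under 12 of 17 alternatives) and had -0.04 ± 0.08 in GemR siCont. The E2-like ATG3, the protease ATG4B and ATG5 were lower with thapsigargin in GemR siCont (-0.24, -0.21 and -0.28), and the ATG5 groups overlapped. The call of each was lost without GemR siCont vehicle replicate 1 (adjusted p = 0.119 for ATG3, 0.198 for ATG4B and 0.106 for ATG5), a library whose deviations fell with transcript length. The protease ATG4A and the E1-like ATG7 had no called change in the 3 settings.

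The ATG8 proteins split into a pair that rose and a pair that did not. MAP1LC3B (chr16:87383995-87404779, plus strand) encodes LC3B, the ATG8 protein most used to mark autophagosomes. In Par it had 358.4, 385.9 and 369.6 normalized counts with vehicle and 1093.6, 1089.9 and 992.9 with thapsigargin. The rise was 1.51 ± 0.09 (2.84-fold, adjusted p = 4.9e-11). In GemR siCont it had 557.9, 464.1 and 446.0 and then 640.2, 581.3 and 552.9, and these groups overlapped. The rise there was 0.28 ± 0.09 (1.21-fold, adjusted p = 0.0174), and adjusted p was 0.0973 without GemR siCont thapsigargin replicate 1, and 0.0632 and 0.0736 without vehicle replicates 2 and 3. In GemR siSTIM1 MAP1LC3B went from 393.7, 414.8 and 396.3 to 787.7, 835.6 and 745.4, a rise of 0.97 ± 0.09 (1.96-fold, adjusted p = 4.5e-08). MAP1LC3B2, a near-identical copy, had a mean of 11.1 normalized counts, and reads shared by the copies leave the value of MAP1LC3B uncertain.

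GABARAPL1, of the GABARAP branch, had 266.0, 326.6 and 333.6 in Par with vehicle and 607.2, 575.2 and 613.4 with thapsigargin, a rise of 0.96 ± 0.08 (1.95-fold, adjusted p = 2.2e-08). In GemR siCont it went from 495.5, 492.2 and 448.9 to 560.3, 599.8 and 619.3 (0.31 ± 0.08), and in GemR siSTIM1 from 448.3, 428.0 and 419.1 to 562.4, 558.6 and 564.1 (0.38 ± 0.08). With thapsigargin the means of the 3 settings lay between 561.7 and 598.6, so the smaller rise in GemR began from a higher vehicle level. GABARAP had -0.28 ± 0.11 in Par (adjusted p = 0.0490, lost under 8 of 16 alternatives), -0.15 ± 0.11 in GemR siCont and 0.01 ± 0.11 in GemR siSTIM1. Exons of 2 other gene models, 1 on the same strand, cover 55.7% of the exon bases of GABARAP. GABARAPL2 had -0.17 ± 0.11, -0.11 ± 0.11 and 0.04 ± 0.11 and was not called.

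Cargo receptors rose in different settings. OPTN, a receptor for damaged mitochondria and bacteria, rose by 0.31 ± 0.12, 0.37 ± 0.12 and 0.43 ± 0.12. Its calls were lost under 4 of 17 alternatives in GemR siCont and 2 of 17 in GemR siSTIM1, and in Par under 9 of 16, among them edgeR (OPTN, adjusted p = 0.0695) and DESeq2 (0.0539). SQSTM1, the receptor p62, was at 10405 ± 142 in Par with vehicle and 10657 ± 293 with thapsigargin, which was not called. It rose in GemR siCont by 0.20 ± 0.06 (adjusted p = 0.0209, lost under 6 of 17 alternatives) and in GemR siSTIM1 by 0.32 ± 0.06 (adjusted p = 9.1e-04). NBR1, a related receptor, rose in Par by 0.45 ± 0.08 (adjusted p = 1.4e-04) and had 0.06 ± 0.08 and 0.07 ± 0.08 in the GemR settings.

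The 3 MiT factors moved in different directions. TFEB, named as the master regulator of lysosomal genes, had 39.6, 34.1 and 37.1 normalized counts in Par with vehicle and 14.2, 21.6 and 17.7 with thapsigargin. It fell by 1.03 on the log2 scale (standard error 0.25, adjusted p = 0.00312). In GemR siCont it had 45.7, 42.9 and 44.5 and then 54.5, 38.8 and 35.4, which overlapped (-0.07 ± 0.25). In GemR siSTIM1 it had 63.7, 49.8 and 47.7 and then 17.8, 41.5 and 32.2 (-0.86 ± 0.25, adjusted p = 0.0163). Without the lowest of these, thapsigargin replicate 1, the adjusted p was 0.12, and without vehicle replicate 1 it was 0.0816. TFE3 rose in Par from 357.7 ± 21.7 to 547.0 ± 31.0 (0.61 ± 0.08, adjusted p = 9.1e-06) and had 0.13 ± 0.08 and 0.22 ± 0.08 in the GemR settings. MITF had 28.4, 40.1 and 39.0 in Par with vehicle and 75.5, 86.3 and 48.9 with thapsigargin (0.93 ± 0.18, adjusted p = 4.8e-04). It rose by 0.76 ± 0.18 in GemR siCont and by 0.58 ± 0.18 in GemR siSTIM1, the latter lost under 4 of 17 alternatives.

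**Figure D2:**
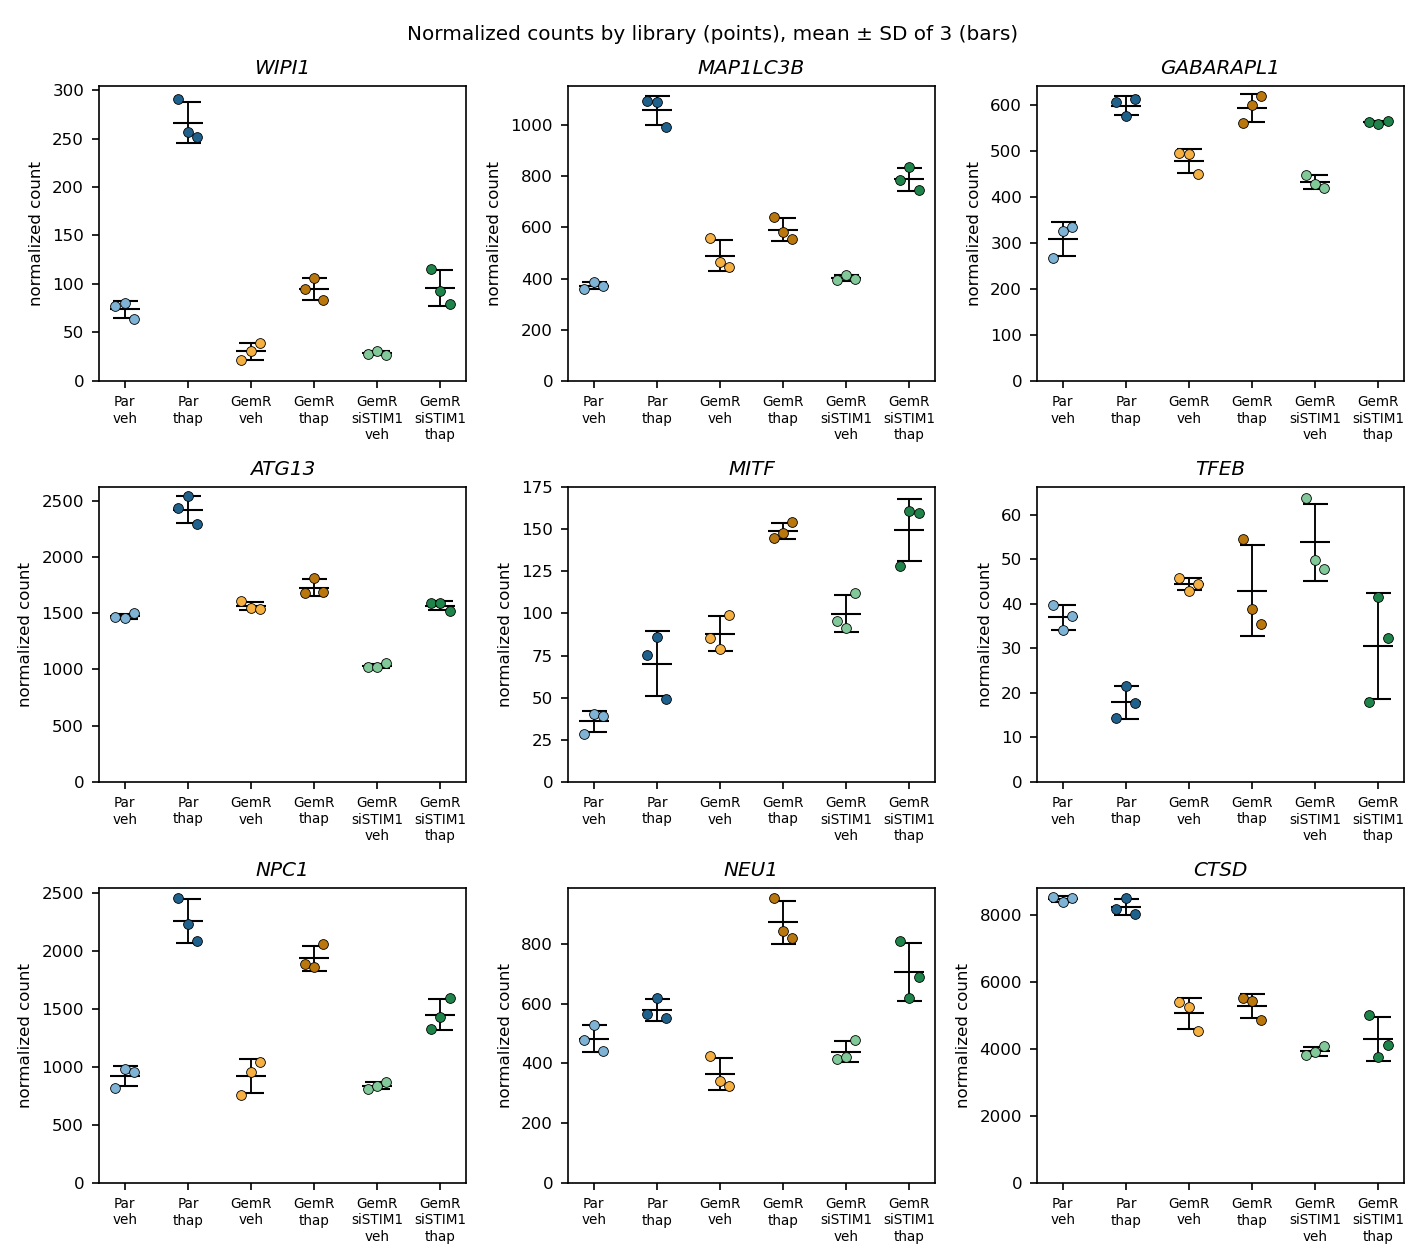
Normalized counts (y axis, from 0) of 9 members in the 6 groups (x axis; veh, vehicle; thap, thapsigargin). Points are libraries, and bars are the mean and SD of 3; WIPI1 and NPC1 rise with thapsigargin in each setting, MAP1LC3B and ATG13 rise in Par and GemR siSTIM1 and little in GemR siCont, and CTSD differs between Par and GemR but not with thapsigargin.

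Most lysosomal members had no called change with thapsigargin, and neither did most of all genes tested. Of the 16, 1 rose and 1 fell in Par, 3 rose and 0 fell in GemR siCont, and 3 rose and 0 fell in GemR siSTIM1. The shares that rose were 6.25%, 18.8% and 18.8%, beside 20.5%, 17.9% and 12.5% of all genes. Those that fell were 6.25%, 0.00% and 0.00%, beside 19.7%, 15.8% and 11.9%. NPC1 (chr18:23506184-23586898, minus strand), which exports cholesterol from the lysosome, had 818.3, 982.7 and 956.8 in Par with vehicle and 2457.2, 2231.6 and 2086.7 with thapsigargin. The rise was 1.30 ± 0.10 (2.46-fold, adjusted p = 7.5e-09). In GemR siCont NPC1 went from 755.0, 958.1 and 1041.7 to 1886.9, 1860.1 and 2060.4 (1.09 ± 0.10, 2.12-fold), and in GemR siSTIM1 from 806.8, 832.6 and 868.0 to 1324.4, 1430.2 and 1594.7 (0.79 ± 0.10, 1.73-fold). All thapsigargin libraries lay above all vehicle libraries. NPC2, the lumenal carrier that hands cholesterol to NPC1, had -0.01 ± 0.12, -0.14 ± 0.12 and 0.10 ± 0.12 and was not called. LAMP1 and LAMP2, the abundant glycoproteins of the lysosomal membrane, lay between -0.07 and 0.11, and MCOLN1, the lysosomal calcium channel, between -0.03 and 0.22; none was called.

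Of the 7 hydrolases, NEU1, a sialidase (chr6:31857659-31862906, minus strand), was the one that rose. In Par it had 480.2, 529.9 and 440.8 with vehicle and 564.7, 620.5 and 553.1 with thapsigargin, a change of 0.26 ± 0.11 that was not called although the groups did not overlap. In GemR siCont it went from 425.4, 342.4 and 324.8 to 956.1, 843.8 and 821.8 (1.27 ± 0.11, 2.41-fold, adjusted p = 3.2e-08). In GemR siSTIM1 it went from 414.2, 422.9 and 479.7 to 811.4, 620.4 and 689.8 (0.68 ± 0.11, 1.60-fold, adjusted p = 1.2e-04). GemR siCont thus held both the lowest vehicle mean and the highest thapsigargin mean of NEU1. CTSB, the protease cathepsin B, fell in Par by 0.24 ± 0.05 (adjusted p = 9.8e-04) and had 0.01 ± 0.05 and -0.11 ± 0.05 in GemR. The proteases CTSA, CTSD and CTSL, the galactosidase GLA and the hexosaminidase subunit HEXA were not called, with changes from -0.20 to 0.20. PSAP, the precursor of the saposins that help lipid hydrolases, had 0.12, 0.12 and 0.14, each ± 0.06, and was not called.

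Pump subunits had 0 called changes in Par and 1 in each GemR setting. ATP6V1A, the catalytic subunit, had 0.21 ± 0.08 in GemR siCont (adjusted p = 0.0399, lost under 7 of 17 alternatives). ATP6V0D1, of the membrane sector, had 0.31 ± 0.11 in GemR siSTIM1 (adjusted p = 0.0391), which was 0.206 without siSTIM1 thapsigargin replicate 1. ATP6V1H, of the cytosolic sector, had 0.06 ± 0.10, 0.04 ± 0.10 and 0.23 ± 0.10 and was not called.

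Set side by side, the 23 autophagy genes and the 10 hydrolase and pump genes had similar levels, with medians of 1008.7 and 1014.9 normalized counts. With thapsigargin 10 autophagy genes rose and 3 fell in Par, 8 rose and 4 fell in GemR siCont, and 10 rose and 1 fell in GemR siSTIM1. The shares that rose were 43.5%, 34.8% and 43.5%, beside 20.5%, 17.9% and 12.5% of all genes, and those that fell were 13.0%, 17.4% and 4.35%, beside 19.7%, 15.8% and 11.9%. Among the 10 hydrolase and pump genes 0 rose and 1 fell in Par, and 2 rose and 0 fell in each GemR setting. Of these 10, the shares that rose were 0.00%, 20.0% and 20.0%, near or above those of all genes in GemR. The shares that fell were 10.0%, 0.00% and 0.00%, below those of all genes. The medians of the autophagy genes were 0.04, 0.08 and 0.13, and those of the hydrolase and pump genes -0.05, 0.05 and 0.13. The medians thus stood close together in GemR, while the counts of called rises were 8 of 23 against 2 of 10 and 10 of 23 against 2 of 10. The widest rises were 1.85 for WIPI1 among autophagy genes and 1.27 for NEU1 among hydrolases. No test of the difference between the lists was made.

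Promoters were read because TFEB, TFE3 and MITF act through the CLEAR element. RefSeq promoters (GRCh38.p14, 250 bases before to 50 after the start) were found for 36 of the 42 members; ATP6V1A, LAMP2, HEXA, PSAP, ATP6V1H and CTSB had no entry. The core of the element, TCACGTG on either strand, was present in 8 of the 36, against 3.71% of 35116 promoters of the same length. They were 6 of 10 lysosomal members (LAMP1, CTSA, CTSD, NEU1, MCOLN1 and ATP6V0D1), 2 of 23 autophagy members (ATG3 and ATG14) and 0 of the 3 factors. The stretches below, 5′ to 3′ on the strand of the gene, show the core in capitals in 5 lysosomal promoters, chosen to cover those with several copies and the 2 hydrolases with the widest changes.
LAMP1: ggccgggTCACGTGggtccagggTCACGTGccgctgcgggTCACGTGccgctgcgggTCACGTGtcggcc
MCOLN1: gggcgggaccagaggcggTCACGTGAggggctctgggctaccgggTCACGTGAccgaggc
CTSA: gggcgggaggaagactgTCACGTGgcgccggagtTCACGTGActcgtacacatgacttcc
CTSD: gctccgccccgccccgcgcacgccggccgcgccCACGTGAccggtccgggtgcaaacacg
NEU1: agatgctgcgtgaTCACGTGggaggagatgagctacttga

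The LAMP1 stretch lies at chr13:113297039-113297108 on the plus strand and holds 4 copies of the core. MCOLN1 (chr19:7522564-7522623, plus) and CTSA (chr20:45891275-45891334, plus) hold 2 each. CTSD (chr11:1763948-1764007, minus) and NEU1 (chr6:31862922-31862961, minus) hold 1 each. In CTSD the core is read on the opposite strand (CACGTGA), and where the capitals read TCACGTGA it is present on both strands. Of these 5, only NEU1 had a called thapsigargin change. The other members with the core each had one too. ATG14 rose in Par and GemR siCont, ATG3 fell in GemR siCont and ATP6V0D1 rose in GemR siSTIM1. For comparison, the 120 bases before the start of WIPI1 (chr17:68457497-68457616, minus) and NPC1 (chr18:23586507-23586626, minus), whose RNA rose in each setting, hold no copy.
WIPI1: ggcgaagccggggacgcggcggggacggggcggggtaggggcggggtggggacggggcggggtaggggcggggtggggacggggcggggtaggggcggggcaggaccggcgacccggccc
NPC1: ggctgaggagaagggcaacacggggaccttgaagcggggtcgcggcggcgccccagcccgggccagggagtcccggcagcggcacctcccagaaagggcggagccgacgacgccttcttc

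Among the 8 members with the core, 1 rose and 0 fell in Par, 2 rose and 1 fell in GemR siCont, and 2 rose and 0 fell in GemR siSTIM1. Among the 28 matched members without it, 12 rose and 4 fell, 9 rose and 3 fell, and 12 rose and 2 fell. Of all genes tested 20.5%, 17.9% and 12.5% rose in the same order, and 19.7%, 15.8% and 11.9% fell. The split by the core overlaps the split by class, as 6 of the 8 were lysosomal genes and 2 autophagy genes. The C/EBP-ATF element TGATGNAA was found in 0 of the 36 members, against 3.62% of all promoters. These are counts of letters in the windows searched and not of bound sites.

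The size of the thapsigargin response was then compared between settings. For GemR siCont minus Par, the difference was positive for 3 members (7.14%, against 7.14% of all genes tested) and negative for 5 (11.9%, against 7.66%), and the 8 made 19.0% beside 14.8%. MAP1LC3B differed most, by -1.23 ± 0.12 (adjusted p = 8.6e-07): its rise of 2.84-fold in Par was 1.21-fold in GemR. GABARAPL1 (-0.65 ± 0.12, adjusted p = 7.1e-04), ATG13 (-0.57 ± 0.08, adjusted p = 5.5e-05), TFE3 (-0.48 ± 0.12) and NBR1 (-0.40 ± 0.11) also rose less in GemR. NEU1 rose more in GemR, by 1.00 ± 0.16 (adjusted p = 1.9e-04). The differences of CTSB (0.25 ± 0.07), which fell in Par, and of GLA (0.38 ± 0.12), which was called in neither, were positive too. The 5 negative differences were 4 autophagy genes and TFE3, and the 3 positive ones were hydrolases. Of 33 further autophagy genes, from the lists given below, 3 had a positive difference and 2 a negative one. Of 38 further hydrolases and cofactors 2 were positive (5.26%, against 7.14% of all genes) and 0 negative. The call of GLA was lost under 11 of 23 alternatives, that of NBR1 under 5 and that of CTSB under 3. WIPI1 (-0.20 ± 0.27) and NPC1 (-0.21 ± 0.15) were not called. TFEB had 0.96 ± 0.36, also not called.

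For GemR siSTIM1 minus GemR siCont, the difference was positive for 2 members (4.76%, against 1.50%) and negative for 1 (2.38%, against 2.90%), and the 3 made 7.14% beside 4.41%. MAP1LC3B rose more with siSTIM1, by 0.70 ± 0.12 (adjusted p = 0.00191), and so did ATG13, by 0.46 ± 0.08 (adjusted p = 0.00211). NEU1 rose less, by -0.59 ± 0.16 (adjusted p = 0.0409), a call lost under 15 of 23 alternatives, edgeR (0.139) and DESeq2 (0.0841) among them. These 3 members were also called in the other comparison of responses, with the opposite sign. Both comparisons use the GemR siCont libraries, so their values are not independent. The median over the members was 0.00 for GemR minus Par and 0.07 for siSTIM1 minus siCont, beside 0.01 and 0.00 for all genes.

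GemR and Par differed in the vehicle state in the ATG8 proteins, the cargo receptors and the hydrolases. In GemR siCont 13 members were higher (31.0%, against 18.1%) and 9 lower (21.4%, against 20.1%), together 52.4% beside 38.2%. With thapsigargin 11 were higher (26.2%, against 23.2%) and 12 lower (28.6%, against 25.0%), together 54.8% beside 48.2%. The medians were 0.03 and -0.01, beside 0.00 for all genes in both. Among the autophagy genes 9 were higher and 4 lower with vehicle, and 4 higher and 7 lower with thapsigargin. Among the hydrolases 0 of 7 were higher and 5 lower with vehicle, and 2 were higher and 3 lower with thapsigargin. The pump subunits had 2 of 3 higher and 0 lower in both conditions.

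**Figure D3:**
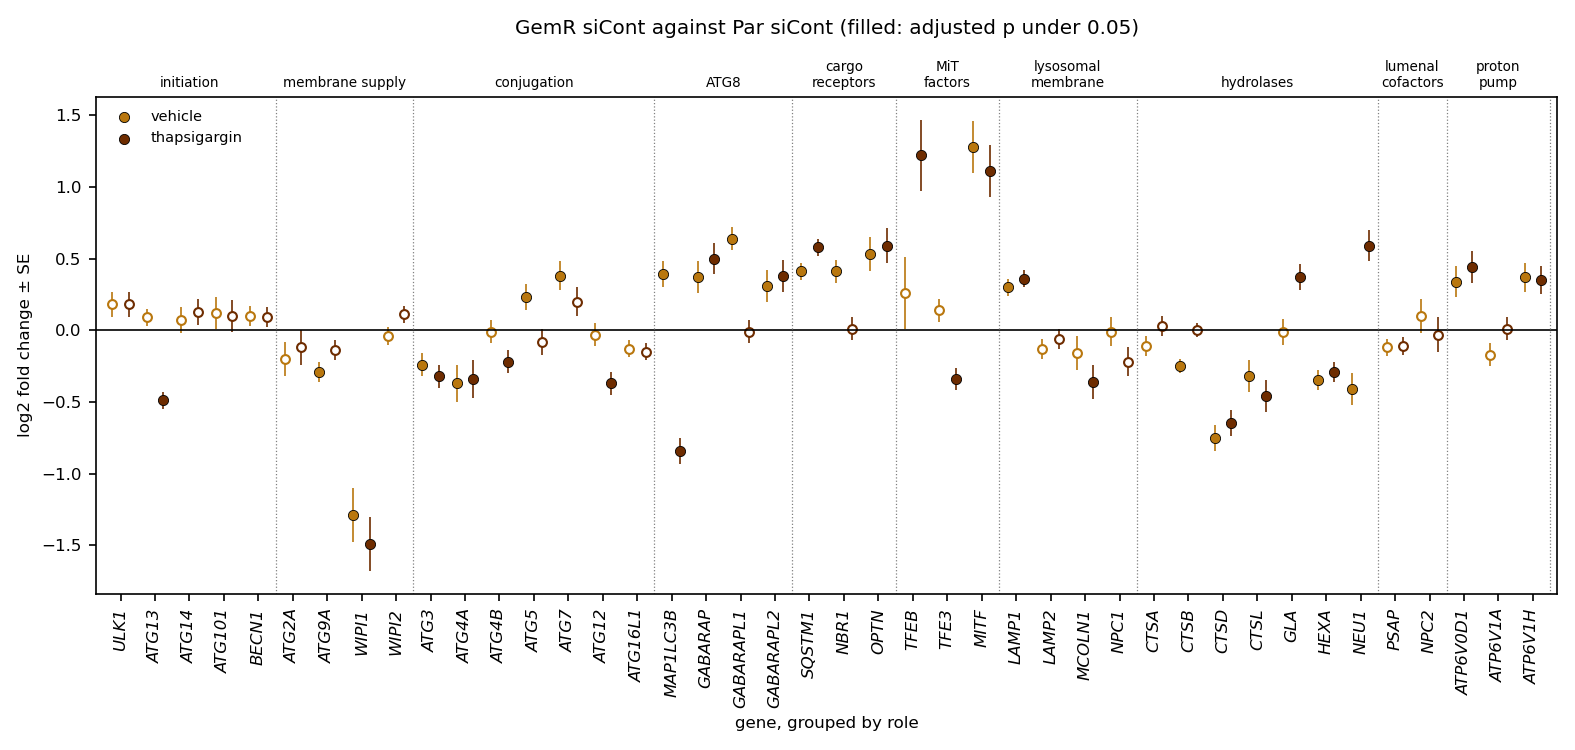
Log2 fold change of GemR siCont against Par siCont (y axis, ± standard error of the fit) for the 42 members by role (x axis), with vehicle and with thapsigargin. Filled points passed an adjusted p of 0.05; the ATG8 proteins and cargo receptors lie above 0 with vehicle, the hydrolases at or below 0, and WIPI1 is lowest and MITF among the highest.

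All 4 ATG8 genes were higher in GemR with vehicle. GABARAPL1 led with 0.64 ± 0.08 (1.56-fold, adjusted p = 6.3e-06), followed by MAP1LC3B at 0.39 ± 0.09, GABARAP at 0.37 ± 0.11 and GABARAPL2 at 0.31 ± 0.11. For GABARAP and GABARAPL2 the GemR vehicle values were 1895.2, 1388.1 and 1270.9, and 1438.7, 977.3 and 984.9, so replicate 1 stood far above the others. Without that library the adjusted p was 0.0595 for GABARAP and 0.235 for GABARAPL2. With thapsigargin MAP1LC3B was lower in GemR than in Par (-0.84 ± 0.09, 1.79-fold, adjusted p = 1.8e-07), the reverse of its order with vehicle. GABARAP (0.50 ± 0.11) and GABARAPL2 (0.38 ± 0.11) stayed higher.

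All 3 cargo receptors were higher in GemR with vehicle. SQSTM1 had 10491.2, 10482.7 and 10241.6 in Par and 14801.9, 13926.2 and 12817.7 in GemR siCont, a difference of 0.41 ± 0.06 (1.33-fold, adjusted p = 5.4e-05). OPTN had 150.3, 188.5 and 166.8 in Par and 277.3, 218.1 and 237.7 in GemR (0.53 ± 0.12, adjusted p = 0.0018). NBR1 differed by 0.41 ± 0.08. None of the 3 overlapped between the groups, and the share of all genes without overlap was not counted. With thapsigargin the differences were 0.58 ± 0.06 for SQSTM1, 0.59 ± 0.12 for OPTN and 0.01 ± 0.08 for NBR1.

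WIPI1 stood lower in GemR than in Par, at -1.29 ± 0.19 with vehicle (2.45-fold, adjusted p = 2.3e-05) and -1.49 ± 0.19 with thapsigargin (2.80-fold, adjusted p = 2.9e-06), the widest differences among the autophagy genes. MITF stood higher, with 85.7, 78.8 and 99.4 in GemR against 28.4, 40.1 and 39.0 in Par with vehicle (1.28 ± 0.18, 2.43-fold, adjusted p = 1.9e-05), and with 1.11 ± 0.18 in thapsigargin. TFEB was 1.22 ± 0.25 higher in GemR with thapsigargin (adjusted p = 6.0e-04) and had 0.26 ± 0.25 with vehicle. Of the conjugation genes, ATG7 (0.38 ± 0.10) and ATG5 (0.23 ± 0.09) were higher and ATG3 (-0.24 ± 0.08) and ATG4A (-0.37 ± 0.13) lower in GemR with vehicle. The calls of ATG5, ATG3 and ATG4A were lost under 7, 5 and 5 of 17 alternatives. None of the 5 initiation genes was called with vehicle, and ATG9A was lower (-0.29 ± 0.07). With thapsigargin ATG13 (-0.49 ± 0.06), ATG12 (-0.37 ± 0.08), TFE3 (-0.34 ± 0.08) and ATG4B (-0.22 ± 0.08) were lower in GemR. The ATG4B call was lost without Par thapsigargin replicate 2 (adjusted p = 0.131) or GemR siCont thapsigargin replicate 1 (0.0593) or 3 (0.0835). MCOLN1 was lower too (-0.36 ± 0.12), with groups that overlapped and a call lost under 4 of 16 alternatives.

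The hydrolases were lower in GemR with vehicle in 5 of 7 cases. CTSD, cathepsin D (chr11:1752752-1764573, minus strand), had 8517.6, 8370.4 and 8506.6 in Par and 5384.9, 5237.0 and 4536.2 in GemR siCont. It fell between them by 0.75 ± 0.09 (1.68-fold, adjusted p = 1.3e-06), and the difference with thapsigargin was -0.65 ± 0.09. Exons of 2 other gene models, 1 on the same strand, share 52.7% of the exon bases of CTSD. NEU1 (-0.41 ± 0.11), HEXA (-0.35 ± 0.07), CTSL (-0.32 ± 0.11) and CTSB (-0.25 ± 0.05) were lower too. The CTSL call had adjusted p = 0.148 without GemR siCont vehicle replicate 2 and 0.136 without Par vehicle replicate 1. CTSA had -0.11 ± 0.07 and GLA -0.01 ± 0.09. With thapsigargin NEU1 was higher in GemR by 0.59 ± 0.11 (adjusted p = 2.5e-04) and GLA by 0.37 ± 0.09, while CTSB stood at 0.00 ± 0.05.

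Of the 3 pump subunits, 2 were higher in GemR in both conditions. With vehicle ATP6V0D1 was higher in GemR by 0.34 ± 0.11 and ATP6V1H by 0.37 ± 0.10, and with thapsigargin by 0.44 ± 0.11 and 0.35 ± 0.10. The GemR vehicle values of ATP6V0D1 were 1334.0, 1020.3 and 909.1, and without the first its adjusted p was 0.0972. ATP6V1A had -0.17 ± 0.08 and 0.01 ± 0.08 and was not called. LAMP1 was higher by 0.30 ± 0.06 with vehicle and 0.36 ± 0.06 with thapsigargin (adjusted p = 4.0e-04 and 4.1e-05), whereas LAMP2 had -0.13 ± 0.07 and -0.06 ± 0.07.

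Depletion of STIM1 in GemR went with higher cargo receptors and with lower genes in several other roles. With vehicle 7 members were higher in siSTIM1 than in siCont (16.7%, against 20.9%) and 14 lower (33.3%, against 21.1%), so that 21 were called either way, beside 42% of all genes. With thapsigargin 8 were higher (19.0%, against 17.7%) and 8 lower (19.0%, against 18.9%), together 38.1% beside 36.6%, so the counts with thapsigargin lay near those of all genes. The medians were -0.04 and 0.00, beside 0.00 and -0.01. With vehicle 5 autophagy genes were higher and 8 lower, and 1 of the 10 hydrolase and pump genes was higher and 5 lower. With thapsigargin these counts were 6 and 3, and 2 and 4. None of the 3 MiT factors was called in either condition. The summed level of 7 immune and endothelial markers, 2 of them with a mean of at least 10, was also lower with siSTIM1: 216.3 to 234.9 in siCont and 117.2 to 150 in siSTIM1 with vehicle, and 241.3-257.6 and 151.0-178.9 with thapsigargin. Of the 7 only LYZ was at 0 in all 4 of these groups, and the part of this in the results was not tested.

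**Figure D4:**
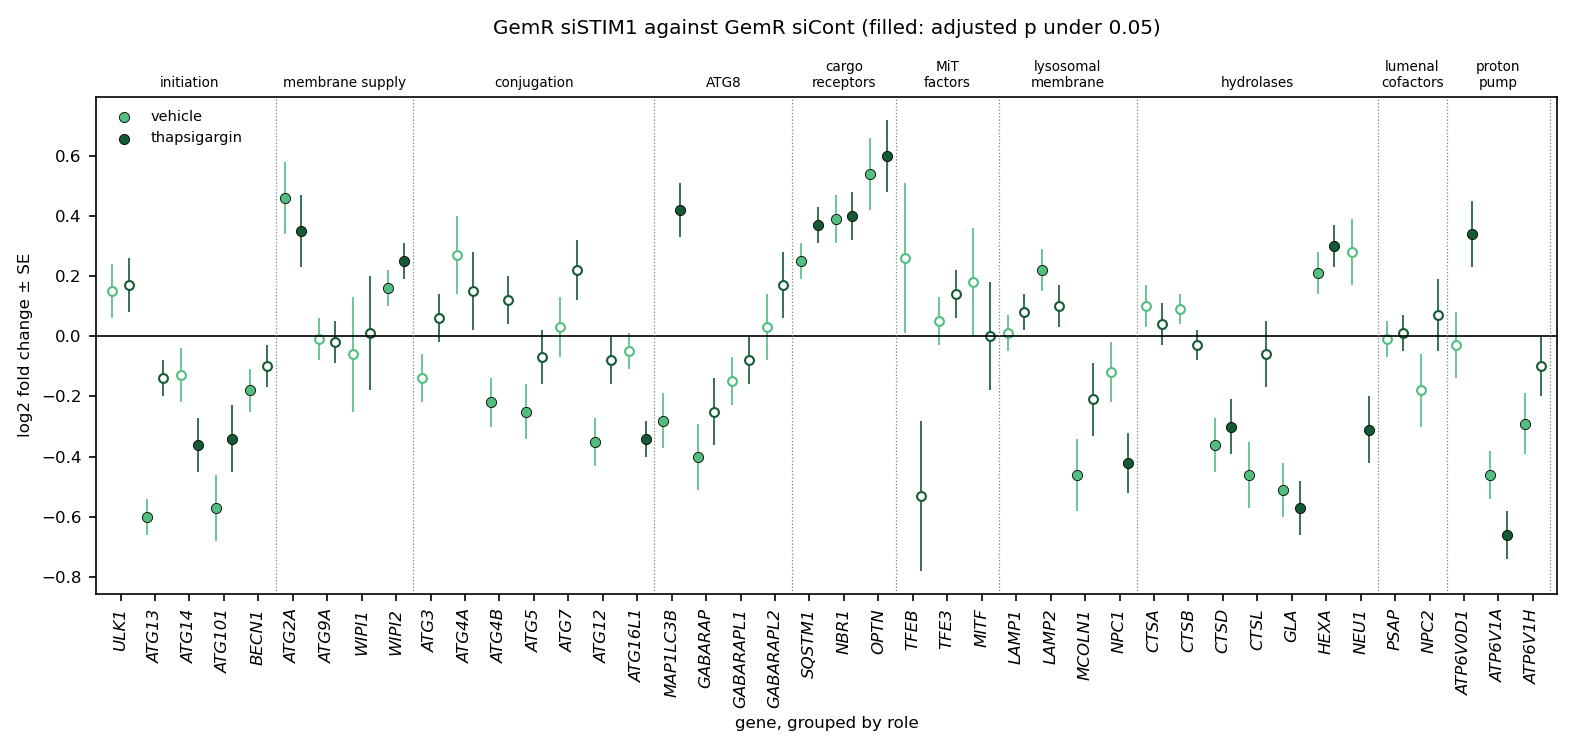
Log2 fold change of GemR siSTIM1 against GemR siCont (y axis, ± standard error of the fit) for the 42 members by role (x axis), with vehicle and with thapsigargin. Filled points passed an adjusted p of 0.05; the 3 cargo receptors lie above 0 in both conditions, and ATG13, GLA and ATP6V1A are among the lowest.

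The 3 cargo receptors were higher with siSTIM1 in both conditions. OPTN had 277.3, 218.1 and 237.7 in siCont and 357.3, 366.0 and 337.7 in siSTIM1 with vehicle (0.54 ± 0.12, 1.45-fold, adjusted p = 0.00174), and 0.60 ± 0.12 with thapsigargin. SQSTM1 went from 14801.9, 13926.2 and 12817.7 to 16125.4, 16434.0 and 16765.8 with vehicle (0.25 ± 0.06, adjusted p = 0.00478), and with thapsigargin it was 0.37 ± 0.06 higher. NBR1 had 0.39 ± 0.08 and 0.40 ± 0.08. The groups did not overlap for any of the 3 with vehicle, and the share of all genes without overlap was not counted here either. ATG2A (0.46 ± 0.12 and 0.35 ± 0.12), WIPI2 (0.16 ± 0.06 and 0.25 ± 0.06) and HEXA (0.21 ± 0.07 and 0.30 ± 0.07) were also higher in both. The vehicle calls of WIPI2 and HEXA were lost under 10 and 8 of 17 alternatives, and the thapsigargin call of ATG2A under 4.

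Lower in both conditions were ATG101, CTSD, GLA and ATP6V1A. ATP6V1A had 1603.5, 1539.6 and 1712.2 in siCont and 1265.4, 1161.9 and 1115.3 in siSTIM1 with vehicle. With thapsigargin it had 1863.4, 1795.0 and 1943.6 and then 1074.4, 1262.0 and 1212.8. The groups stood apart in both conditions (-0.46 ± 0.08, adjusted p = 1.1e-04, and -0.66 ± 0.08, adjusted p = 1.2e-06). GLA, the enzyme that is lacking in Fabry disease, had -0.51 ± 0.09 and -0.57 ± 0.09. CTSD, already lower in GemR than in Par, had -0.36 ± 0.09 and -0.30 ± 0.09 with siSTIM1. Its thapsigargin groups overlapped, and the adjusted p was 0.0713 without siSTIM1 thapsigargin replicate 2. ATG101 had -0.57 ± 0.11 and -0.34 ± 0.11, and its thapsigargin call was lost without siSTIM1 thapsigargin replicate 2 (adjusted p = 0.11) or 3 (0.0581) or siCont thapsigargin replicate 1 (0.0676). ATG13 was lower with vehicle (-0.60 ± 0.06, 1.51-fold, adjusted p = 1.9e-07) and had -0.14 ± 0.06 with thapsigargin, which was not called.

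Further members differed in 1 of the conditions, MAP1LC3B in both with opposite signs. With vehicle, ATG12 (-0.35 ± 0.08), ATG5 (-0.25 ± 0.09), ATG4B (-0.22 ± 0.08), BECN1 (-0.18 ± 0.07), GABARAP (-0.40 ± 0.11) and MAP1LC3B (-0.28 ± 0.09) were lower with siSTIM1. So were CTSL (-0.46 ± 0.11), MCOLN1 (-0.46 ± 0.12) and ATP6V1H (-0.29 ± 0.10), while LAMP2 was higher (0.22 ± 0.07). BECN1, ATG5, ATG4B and ATP6V1H lost their calls under 9, 8, 7 and 7 of 17 alternatives. Without GemR siCont vehicle replicate 1, MAP1LC3B had an adjusted p of 0.0875. With thapsigargin MAP1LC3B was higher in siSTIM1, by 0.42 ± 0.09 (adjusted p = 7.9e-04). ATG14 (-0.36 ± 0.09), ATG16L1 (-0.34 ± 0.06), NPC1 (-0.42 ± 0.10) and NEU1 (-0.31 ± 0.11, lost under 6 of 17 alternatives) were lower in that condition, and ATP6V0D1 was higher (0.34 ± 0.11). The ATP6V0D1 call was lost without siSTIM1 thapsigargin replicate 1 (adjusted p = 0.0965) or siCont thapsigargin replicate 2 (0.0623). WIPI1 did not differ by more than its error in either condition (-0.06 ± 0.19 and 0.01 ± 0.19).

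Across the 9 comparisons CTSA, PSAP and NPC2 were called in none, and the share of all genes called in none was not counted. CTSA had group means between 1566 and 1686 normalized counts and PSAP between 9895 and 11723.

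Further genes of the same pathways were read from 5 lists of the genes of each role. Of 33 further autophagy genes tested, 11 rose and 7 fell with thapsigargin in Par, 8 rose and 1 fell in GemR siCont, and 8 rose and 2 fell in GemR siSTIM1. Of all genes tested 20.5% rose and 19.7% fell in Par, 17.9% and 15.8% in GemR siCont, and 12.5% and 11.9% in GemR siSTIM1. The further autophagy genes had 33.3% and 21.2%, 24.2% and 3.03%, and 24.2% and 6.06%. Of 38 further hydrolases and cofactors 4 rose and 7 fell, 6 rose and 2 fell, and 4 rose and 1 fell. Of 15 further pump genes 2 rose and 5 fell, 1 rose and 2 fell, and 2 rose and 1 fell. Called either way were 28.9%, 21.1% and 13.2% of the hydrolases and cofactors, below the 40.1%, 33.6% and 24.3% of all genes. For the pump genes these shares were 46.7%, 20.0% and 20.0%, above that of all genes in Par and below it in GemR. In Par 33.3% of the pump genes fell, beside 19.7% of all genes. The medians of the autophagy, hydrolase and pump lists in Par were 0.03, -0.08 and -0.15, beside -0.02 for all genes. TMEM41B, a lipid scramblase needed for the autophagosome, rose in Par from 586.5 to 1960 normalized counts (1.74 ± 0.06, adjusted p = 4.3e-14). ATP6V1C2, a tissue-restricted pump subunit, rose in GemR siCont (1.55 ± 0.20) and in GemR siSTIM1 (1.32 ± 0.20). Of 20 further genes of the lysosomal membrane 1 rose and 6 fell in Par, 3 rose and 1 fell in GemR siCont, and 1 rose and 2 fell in GemR siSTIM1.

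Of 27 genes of mTORC1, the growth kinase complex that sits on the lysosome and holds autophagy back, and of its regulators, 4 rose and 6 fell in Par. In GemR siCont 8 rose and 2 fell, and in GemR siSTIM1 3 rose and 2 fell. Called either way were 37.0%, 37.0% and 18.5% of this list, beside 40.1%, 33.6% and 24.3% of all genes. The shares that rose were 14.8%, 29.6% and 11.1%, beside 20.5%, 17.9% and 12.5% of all genes. Those that fell were 22.2%, 7.41% and 7.41%, beside 19.7%, 15.8% and 11.9%. SESN2 and DDIT4, both inhibitors of mTORC1, led the rises. The rise of SESN2 was 5.12 ± 0.13 in Par, and with siCont and siSTIM1 in GemR it was 3.91 ± 0.13 and 3.68 ± 0.13. DDIT4 rose by 3.38 ± 0.08, 2.76 ± 0.08 and 2.53 ± 0.08. RRAGD, a GTPase that recruits mTORC1 to the lysosome, was lower in GemR than in Par with vehicle (-1.20 ± 0.18) and higher with siSTIM1 than with siCont (1.08 ± 0.18).

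Between GemR and Par with vehicle, 9 of the 33 further autophagy genes were higher and 4 lower (27.3% and 12.1%, against 18.1% and 20.1% of all genes). Of the 38 further hydrolases and cofactors 5 were higher and 10 lower (13.2% and 26.3%), and of the 15 further pump genes 4 were higher and 2 lower. Called either way, the autophagy genes (39.4%) and the hydrolases and cofactors (39.5%) stood near the 38.2% of all genes. GALC, which cleaves galactosylceramide, was lower in GemR (-2.19 ± 0.21, 4.55-fold, adjusted p = 9.6e-08). SMPD1, acid sphingomyelinase, was higher by 1.94 ± 0.13 (3.83-fold), and TPP1, a tripeptidyl peptidase, by 1.77 ± 0.08 (3.42-fold). With siSTIM1 against siCont in vehicle, 8 of the 33 further autophagy genes were higher and 9 lower (24.2% and 27.3%, against 20.9% and 21.1% of all genes). Of the 38 further hydrolases and cofactors 7 were higher and 10 lower (18.4% and 26.3%), and of the 15 further pump genes 0 were higher and 5 lower. PPT1, a lysosomal thioesterase, was lower in siSTIM1 with vehicle (-0.96 ± 0.06, adjusted p = 6.6e-10) and with thapsigargin (-1.0 ± 0.06). ATP6V0E2, a small pump subunit, was lower too (-0.97 ± 0.18 and -1.04 ± 0.18). CTSO, a cysteine protease, was higher by 1.17 ± 0.27 and 1.30 ± 0.27.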

How the data were processed

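The authors deposited 1 table of normalized counts, used here as a signal. In each column 100% of the values were whole multiples of 1 step, within 0.01, so they are read counts scaled per library. They also deposited tables of log2 fold changes and adjusted p-values for the 3 thapsigargin comparisons. The submitters' processing notes name hg38, STAR 2.6.0c, HTSeq 0.11.1 and DESeq2. Use of strand and the annotation: not given in the sources used here. No column was left unused (0).

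From the deposited counts, log2(normalized count + 1) was fitted in R 4.3.3 with limma 3.58.1 (trend, 1 mean per group, 18 libraries, residual df 12). Genes averaging 10 or more entered, 13096 in all. P-values are two-sided with Benjamini-Hochberg adjustment across all of them. A fold change is on that scale and understates the change of low genes. Alternatives included DESeq2 1.42.0 and the quasi-likelihood test of edgeR 4.0.16, both on reads recovered for 17 libraries. The step of GemR siSTIM1 vehicle replicate 3 lay too near 1 for a unit check, so count tests left it out. The limma step was tested on simulated data. Positions and exon overlaps came from GENCODE 29 (GRCh38), promoters from RefSeq. Figures were drawn with matplotlib 3.10.9.

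The members, lists and tests were chosen with earlier results of these data known. All 42 members could be named, and of the further lists up to 3 called genes per direction and comparison with the largest change and a group mean of at least 50.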

Additional observations from a re-analysis of the deposited data

Results flagged for a closer look

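The thapsigargin response differed between settings for 8 members in GemR siCont against Par and for 3 in GemR siSTIM1 against GemR siCont, each by limma's test of the difference. In GemR the responses of MAP1LC3B (-1.23), GABARAPL1 (-0.65), ATG13 (-0.57), TFE3 (-0.48) and NBR1 (-0.40) were smaller on the log2 scale than in Par. Those of NEU1 (1.00), GLA (0.38) and CTSB (0.25) were higher. With siSTIM1 the responses of MAP1LC3B (0.70) and ATG13 (0.46) were larger than with siCont, and that of NEU1 (-0.59) was smaller. GemR siCont libraries enter both sets of values. MAP1LC3B and ATG13 kept both calls under all alternatives tried, and NEU1, GABARAPL1 and TFE3 kept theirs for GemR against Par.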

How the results depend on the processing

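No called member changed direction under the alternatives tried. Using only the libraries compared lowered the members called from 16 to 9 for thapsigargin in GemR siCont, from 22 to 14 for GemR against Par with vehicle and from 21 to 10 for siSTIM1 against siCont with vehicle. It raised them from 18 to 25 for thapsigargin in Par and from 23 to 29 for GemR against Par with thapsigargin, and the cause was not tested. Over all genes the 3 lowered counts went from 4402 to 2843, 5000 to 3129 and 5496 to 3294, and the 2 raised ones from 5253 to 6691 and 6314 to 8041. For siSTIM1 against siCont with vehicle, edgeR and DESeq2 each called 14 members against 21, and 4380 and 4447 of all genes. Both leave out siSTIM1 vehicle replicate 3, and limma without that library called 15 members. Leaving out 1 library at a time gave 10 to 16 members for thapsigargin in GemR siCont, with 10 without thapsigargin replicate 1. It gave 5 to 10 against 8 for the difference of responses GemR minus Par, with 5 without GemR siCont thapsigargin replicate 2. It gave 2 to 5 against 3 for siSTIM1 minus siCont, with 5 without GemR siCont vehicle replicate 3. With GemR siCont vehicle replicate 1 and siSTIM1 thapsigargin replicate 1 both left out, the 2 most negative in their relation to transcript length, the GemR minus Par difference had 13 members called, and 3852 genes against 1938; without GemR siCont vehicle replicate 1 it had 2943. For siSTIM1 minus siCont the genes called were 577, with 317 from only the libraries compared, 346 from edgeR and 1216 without GemR siCont vehicle replicate 3, whose deviations rose with transcript length (rho 0.534). They were 334 and 338 without GemR siCont thapsigargin replicates 1 and 3, 323 and 341 without siSTIM1 vehicle replicates 1 and 3, and 372 without siSTIM1 thapsigargin replicate 1. Of the members called, 14 of 18, 9 of 16 and 9 of 16 in the thapsigargin comparisons were called under every alternative. For GemR against Par these were 14 of 22 and 19 of 23, for siSTIM1 against siCont 10 of 21 and 11 of 16, and for the differences 5 of 8 and 2 of 3.

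Pairs of samples from different groups were compared by r, the correlation of their deviations from the group means. Over the 45 pairs of samples with the same replicate number, r ran from -0.177 to 0.491 with a median of 0.021, and 9 were over 0.1. Over the 90 pairs with different numbers it ran from -0.459 to 0.301 with a median of -0.007, and 12 were over 0.1. All 3 same-numbered pairs of GemR siCont vehicle and GemR siSTIM1 thapsigargin were over 0.1 (0.491, 0.14 and 0.288), but not each correlated best with its own number. With the replicate number as a block the members called were 19, 16 and 15 with thapsigargin in Par, GemR siCont and GemR siSTIM1, 22 and 23 for GemR against Par, 22 and 16 for siSTIM1, and 8 and 3 for the differences. The block ended the call of ATG12 with thapsigargin in GemR siSTIM1 (adjusted p = 0.0536) and added GLA with thapsigargin in Par (0.0444) and NEU1 for siSTIM1 with vehicle (0.0460). The number of libraries per group limits what could be called.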

Other observations

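The 3 further list genes with the largest rise in GemR over Par with vehicle all lie on the short arm of chromosome 11 near STIM1 and RRM1, a choice made after their values were seen. In GENCODE 29 (GRCh38) SMPD1 lies at chr11:6390431-6394998, TPP1 at chr11:6612763-6619485 and TMEM41B at chr11:9280654-9314780, between 2.25 and 5.14 Mb from the pair. TMEM41B had 586.5 ± 19.3 normalized counts in Par and 1846 ± 132.5 in GemR (1.65 ± 0.06). On the other side of the pair, CTSD, 2.09 Mb away, and the receptor TOLLIP, 2.54 Mb away, were lower in GemR (-0.75 ± 0.09 and -0.85 ± 0.09). Of 104 tested genes within 6 Mb, 38 were higher and 43 lower in GemR, beside 2365 and 2635 of all 13096 genes. Their median log2 fold change was -0.21, beside 0.0 for all genes. Of the 104, 32 were called at least 2-fold higher, beside 381 of all 13096 genes.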
